A study of Mus musculus with 24 samples.

Results

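The genes described here encode guanylate-binding proteins, large GTPases that cells make in response to interferon. Members were chosen by name: a row of the count files was taken when its Ensembl identifier carries the symbol *Gbp2*, *Gbp3*, *Gbp4*, *Gbp5*, *Gbp6*, *Gbp7*, *Gbp8*, *Gbp9*, *Gbp10* or *Gbp11* in GENCODE release M21, which gave 10 of the 54532 identifiers in the files. All 10 passed the filter on low counts in each of the 4 tissues. RNA-Seq was performed on the heart, stomach, muscle and tongue of mice without *Trex1*, the DNA exonuclease whose loss activates the cGAS-STING pathway, with 3 samples in each of 8 groups and 24 in total. In each tissue 1 group was given the STING antagonist SN-011 and 1 group was the control, and both carried the *Trex1* knockout, so there was no wild-type group. The labels give SN-011 at 5 mg/kg, 3 times per week for 4 weeks, and call the controls untreated, whereas the study's methods give vehicle-injected controls, mice of about a month of age and a daily schedule at another dose. Nothing in the labels says which samples came from the same mouse, so p-values measure the spread between these samples only.

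Guanylate-binding proteins bind and hydrolyse guanine nucleotides and assemble on membranes, including the vacuoles that enclose intracellular bacteria and parasites and the surface of bacteria free in the cytosol. They are background components of cell-autonomous immunity: several open or mark pathogen vacuoles, and some promote the activation of inflammasomes by exposing bacterial products to caspases. Their genes are induced mainly by interferon-gamma through gamma-activated sites (GAS), and by type I interferon through interferon-stimulated response elements (ISRE). The cGAS-STING pathway leads to type I interferon production, and samples given its antagonist SN-011 were compared with controls to see how these transcripts differed.

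The members lie in 2 clusters of GRCm38. On the plus strand of chromosome 3 are *Gbp5* (ENSMUSG00000105504, chr3:142493978-142522344), *Gbp7* (ENSMUSG00000040253, chr3:142530342-142550149), *Gbp3* (ENSMUSG00000028268, chr3:142560026-142573209) and *Gbp2* (ENSMUSG00000028270, chr3:142620602-142638008), with the family gene *Gbp2b*, which is not a member, between the last 2. On the minus strand of chromosome 5 are *Gbp8* (ENSMUSG00000034438, chr5:105014150-105139540), *Gbp9* (ENSMUSG00000029298, chr5:105077630-105139539), *Gbp4* (ENSMUSG00000079363, chr5:105115767-105139586), *Gbp10* (ENSMUSG00000105096, chr5:105215699-105239533), *Gbp6* (ENSMUSG00000104713, chr5:105270702-105293698) and *Gbp11* (ENSMUSG00000092021, chr5:105323042-105346472). *Gbp11* is annotated as a polymorphic pseudogene, and the other 9 as protein coding.

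The clusters differ in how alike their genes are, which matters for counting reads. Coding sequences of the 6 chromosome 5 members were 90.0% to 98.4% identical to each other, whereas those of the 4 chromosome 3 members were 64.8% to 78.6% identical. The most alike pair was *Gbp6* and *Gbp10*, with 1803 of 1833 aligned coding bases identical. Of all stretches of 150 bases in the transcript of *Gbp10*, 44.6% also occur in another family gene, as do 30.3% of those of *Gbp6*, against at most 0.0786% for each other member. In addition, 46.3% of the exonic bases of *Gbp10* and 29.0% of those of *Gbp6* lie in exons of the readthrough gene *Gm43302* on the same strand, 11.3% of those of *Gbp7* lie in *Gm43802*, and 0.814% to 1.77% of those of *Gbp4*, *Gbp8* and *Gbp9* lie in exons that these 3 share. The study counted uniquely mapped pairs, so the split of reads between *Gbp6* and *Gbp10* is uncertain.

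**Figure D1:**
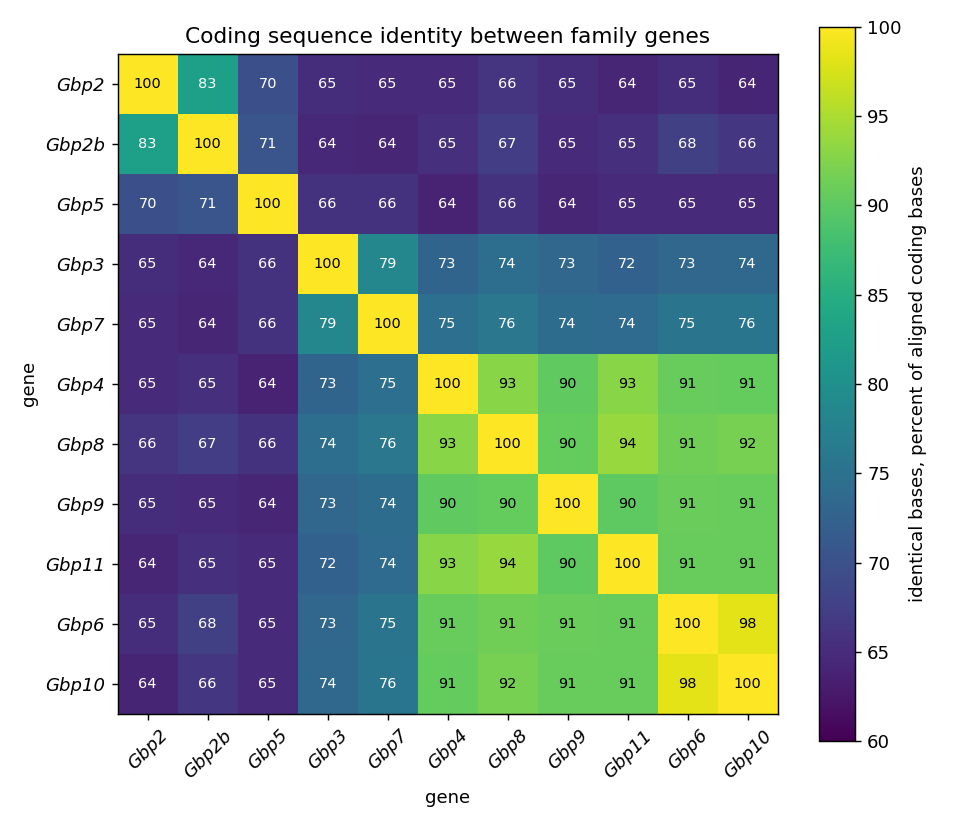
Percent of aligned coding bases that are identical for each pair of the 10 members and Gbp2b, in GENCODE M21 transcripts; both axes list the genes. The 6 chromosome 5 members form a block at 90.0% or more, with Gbp6 and Gbp10 the most alike at 98.4%.

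The ends of the coding sequences separate the members by membrane anchor. A protein whose fourth-last residue is a cysteine in a CaaX box can be prenylated, which anchors it in membranes, and among the members only *Gbp2* and *Gbp5* had a cysteine codon at that place. The last 24 coding bases before the stop codon are shown for both and for the near-identical pair, read 5′ to 3′ on the coding strand from the annotated transcripts, with the last 4 codons in capitals where the fourth-last codes for cysteine. They lie in exon 11 of each gene, at chr3:142637467-142637490 for *Gbp2*, chr3:142521136-142521159 for *Gbp5*, chr5:105273105-105273128 for *Gbp6* and chr5:105217308-105217331 for *Gbp10*.
Gbp2 end: tcgtctgggaagTGCACTATACTC
Gbp5 end: catcatcatgacTGTGTTATAAGC
Gbp6 end: cttgtccgttatctaaagcattta
Gbp10 end: cttgtccgttatctaaagcattta
The stretches of *Gbp6* and *Gbp10* were the same in all 24 bases. In the stretch that codes for the nucleotide-binding loop of the GTPase domain, in exon 2 of both genes, they differed. It is shown with the codons of the conserved loop residues in capitals, at chr5:105290871-105290894 for *Gbp6* and chr5:105235985-105236008 for *Gbp10*.
Gbp6 loop: GGAttgtaccgtacaGGGAAGTCC
Gbp10 loop: GGAtggtcccgtactGGGAAGTCC

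The 4 chromosome 3 members matched a RefSeq promoter, and the windows are shown because ISRE and GAS elements are how interferon reaches these genes. Each window starts 250 bases before the RefSeq transcription start in build GRCm38.p6 and is printed on the plus strand up to its last motif, with motifs in capitals. The motifs searched, on both strands, were the ISRE core GAAANNGAAA, which 3.44% of 32851 promoter windows of 300 bases hold, and the GAS core TTCNNNGAA, which 8.30% hold. Both occur in 0.454% of windows. The windows are chr3:142496684-142496890 for *Gbp5*, chr3:142530086-142530292 for *Gbp7*, chr3:142559794-142560014 for *Gbp3* and chr3:142620413-142620613 for *Gbp2*.
Gbp5: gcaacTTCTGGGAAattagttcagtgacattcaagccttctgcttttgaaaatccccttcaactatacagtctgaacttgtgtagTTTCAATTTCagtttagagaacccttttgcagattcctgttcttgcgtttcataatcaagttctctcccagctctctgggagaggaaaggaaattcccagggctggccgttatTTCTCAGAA
Gbp7: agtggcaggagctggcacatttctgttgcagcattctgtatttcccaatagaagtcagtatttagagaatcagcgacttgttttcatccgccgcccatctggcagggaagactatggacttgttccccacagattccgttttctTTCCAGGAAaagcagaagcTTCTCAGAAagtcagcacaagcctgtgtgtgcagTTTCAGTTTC
Gbp3: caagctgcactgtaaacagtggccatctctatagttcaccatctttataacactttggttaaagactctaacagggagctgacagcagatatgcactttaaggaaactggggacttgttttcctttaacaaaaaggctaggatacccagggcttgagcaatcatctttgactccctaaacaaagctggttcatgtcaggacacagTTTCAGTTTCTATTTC
Gbp2: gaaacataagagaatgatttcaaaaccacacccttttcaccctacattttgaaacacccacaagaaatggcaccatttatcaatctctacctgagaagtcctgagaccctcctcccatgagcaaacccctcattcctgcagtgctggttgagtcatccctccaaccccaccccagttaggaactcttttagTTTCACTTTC
Every one of these windows held an ISRE core, at −165 from the start in *Gbp5*, −53 in *Gbp7*, −59 in *Gbp2* and, as 2 overlapping matches, at −45 and −39 in *Gbp3*. A further annotated start of *Gbp3* held neither motif. GAS cores were found in *Gbp5*, at −245 and −52, and in *Gbp7*, at −106 and −87. A match describes the letters of the window and is not evidence of binding.

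Total counts per sample were 14253416 to 18443329, and 3 counts, taken as the smallest abundance that can be shown, corresponded to 0.163 to 0.210 CPM (counts scaled to a common library total), a floor that covers counting error only. No sample had a count of *Trex1* (0 in 24), but its span lies in that of *Atrip* on one strand, which leaves the genotype unchecked by these files. In every tissue, *Xist*, an X-linked RNA, was at 3060 to 13811 counts in control replicate 1 and at 0 to 20 in the others, so treatment was not balanced by sex. In SN-011 replicate 2 of the muscle 11546 genes were detected, whereas the other samples had 19798 or more. Marker genes fitted the tissue labels: 5 cardiac genes summed to 30583 to 44645 CPM in the heart, 6 skeletal muscle genes to 139476 to 174091 in the muscle, 7 stomach genes to 22888 to 95667 in the stomach and 6 epithelial keratins to 13091 to 52271 in the tongue. The stomach genes also reached 2598 CPM in control replicate 2 of the heart, 598 in that of the muscle and 2421 in that of the tongue, with 265, 255 and 1676 in control replicate 3, against 5.19 to 41.1 in the SN-011 samples of these tissues. Their part in the results below was not tested, and the values without control replicate 2 are given.

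All 10 members had a negative log2 fold change, SN-011 against control, in each of the 4 tissues, but when edgeR's quasi-likelihood p-values were adjusted by Benjamini-Hochberg over all genes, only *Gbp5* in the heart passed. In the heart, 1 of 10 members was called lower, where 0.328% of 16151 genes were. In the muscle 0 of 10 were called (0.00704% of 14198 genes were called lower), and 0 of 10 in the stomach and in the tongue, where 0% of 17031 and of 16587 genes were called lower. At an unadjusted p under 0.05, the same test had 9 members lower in the tongue (7.33% of all genes tested), 8 in the heart (11.6%), 5 in the muscle (5.80%) and 3 in the stomach (11.4%). Every SN-011 sample lay below every control sample for 9 members in the tongue (8.38% of all genes), 8 in the muscle (19.8%), 7 in the heart (13.1%) and 3 in the stomach (15.2%), which is 27 of 40 combinations of member and tissue. For each such member the exact two-sided permutation p was 0.1, the smallest that 3 samples against 3 allow.

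The median log2 fold change of the members for heart, stomach, muscle and tongue was −0.70, −0.97, −1.20 and −0.98, beside −0.01, 0.0043, −0.08 and −0.01 over all genes tested, of which 51.4%, 49.8%, 55.5% and 51.5% were negative. Summed over the 10 members and given from lowest to highest, raw CPM were 1636, 2056 and 2333 in the heart controls and 987, 1099 and 1562 in the heart after SN-011. In the muscle they were 371, 376 and 435 in controls and 106, 155 and 198 after SN-011, and in the tongue 896, 1154 and 1709 against 655, 687 and 726. The stomach was the one tissue in which the sums overlapped, with 210, 446 and 687 in controls and 149, 300 and 308 after SN-011. In bulk tissue, fewer cells that express a gene and less of its RNA per cell cannot be told apart.

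**Figure D2:**
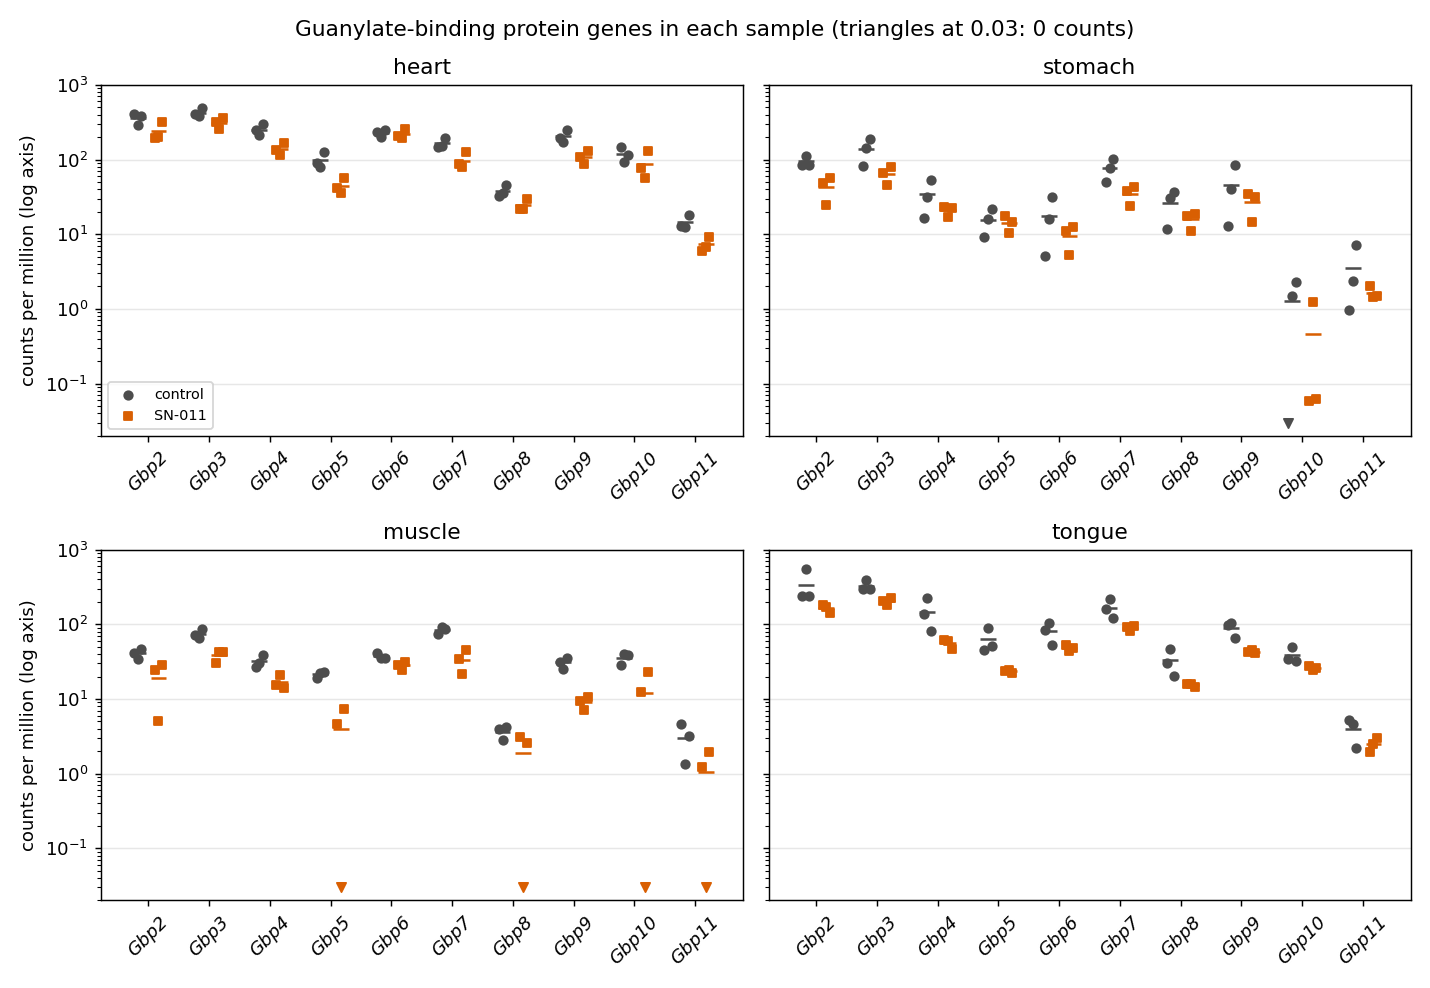
CPM of each member (x axis) in each sample of the 4 tissues, on a log axis; circles are control and squares SN-011 samples, lines are group means of 3, and triangles mark 0 counts. The SN-011 samples lie below all controls for 9 members in the tongue, 8 in the muscle, 7 in the heart and 3 in the stomach.

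How many members passed depended on the test and on single samples. The exact test of edgeR called 6 heart members, 2 stomach members, 4 muscle members and 4 tongue members, and DESeq2 called 7, 3, 4 and 6, all lower after SN-011. Over all genes the exact test called 2.82%, 4.12%, 1.35% and 1.12% lower in these tissues, and DESeq2 4.07%, 6.53%, 2.90% and 1.77%. Without control replicate 1 of the tongue, 6 members were called there, namely *Gbp2*, *Gbp3*, *Gbp4*, *Gbp5*, *Gbp7* and *Gbp9*, among 2135 genes called in all (8.04% of genes lower). Without SN-011 replicate 2 of the muscle, 5 were called, namely *Gbp3*, *Gbp4*, *Gbp5*, *Gbp7* and *Gbp9*, among 1103 genes (3.8% lower). In the heart the count was 4 without control replicate 2, where 787 genes were called (2.46% lower), and 0 when any of the other 5 samples was left out, where 1 to 183 genes were called. Without control replicate 2 of the tissue, which had the most stomach marker counts, the members' median for heart, muscle and tongue was −0.76, −1.23 and −0.62, with all 10 values negative in each. In the stomach the median was −0.34 without control replicate 3, which had the highest summed level of the members there.

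*Gbp5*, which carries the prenylation signal shown above and is known to promote activation of the NLRP3 inflammasome, was the member called in the heart. Its level there was 89.5, 79.1 and 125 CPM in controls and 41.4, 35.8 and 56.0 CPM after SN-011. No SN-011 sample reached the lowest control, and the mean fell to 44.4 ± 10.4 CPM from 97.8 ± 24.01 CPM in controls (SD, 3 samples each). The log2 fold change was −1.14 (SE 0.21) with an adjusted p of 0.0481 in edgeR's quasi-likelihood test, and over the other settings the adjusted p ranged from 2.04e-08 to 0.828. It was above 0.05 when any heart sample but control replicate 2 was left out (log2 fold change −1.36 to −0.93 over the 6 fits).

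In the tongue, *Gbp5* was at 46.01, 90.2 and 52.0 CPM in controls and at 23.99, 24.2 and 22.5 CPM after SN-011. The SN-011 samples were close together and all below the controls, with a log2 fold change of −1.41 (SE 0.26) and an adjusted p of 0.263 in edgeR's test. In the muscle it was at 19.2, 22.1 and 23.1 CPM in controls and at 4.67, 0 and 7.37 CPM after SN-011. The 0 was SN-011 replicate 2, and the log2 fold change was −2.40 (SE 1.10, edgeR adjusted p = 0.375) with it and −1.83 (adjusted p = 0.0196) without it. In the stomach, by contrast, *Gbp5* was at 9.28, 15.8 and 21.6 CPM in controls and at 17.7, 10.3 and 14.7 CPM after SN-011. These groups overlapped, and the log2 fold change of −0.13 (SE 0.37, edgeR adjusted p = 0.855) became 0.16 without control replicate 3 and 0.04 without SN-011 replicate 2.

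*Gbp2*, the other member with the cysteine codon, is recruited to the vacuoles of intracellular pathogens. In the tongue it was at 237, 546 and 239 CPM in controls and at 180, 169 and 140 CPM after SN-011. The groups did not overlap, but control replicate 2 was far above the other controls, and the log2 fold change was −1.06 (SE 0.34, edgeR adjusted p = 0.327) with it and −0.55 without it. In the stomach *Gbp2* was at 85.5, 113 and 84.6 CPM in controls and at 48.8, 25.0 and 56.3 CPM after SN-011. Here all SN-011 samples lay below the controls, with a log2 fold change of −1.12 (SE 0.33, edgeR adjusted p = 0.104). In the heart, where SN-011 replicate 3 at 318 CPM lay above control replicate 2 at 290 CPM, the log2 fold change was −0.58 (SE 0.21, edgeR adjusted p = 0.157). In the muscle the controls were at 34.7 to 47.3 CPM and the SN-011 samples at 5.14 to 28.3 CPM, a log2 fold change of −1.08 (SE 0.56, edgeR adjusted p = 0.441).

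*Gbp3* and *Gbp7* are the chromosome 3 members without the cysteine codon, and *Gbp7* has been linked to host defence in macrophages. The SN-011 samples of both lay below the controls in all 4 tissues. *Gbp7* was at 73.1, 93.3 and 86.6 CPM in muscle controls and at 34.0, 21.9 and 44.7 CPM after SN-011, a log2 fold change of −1.33 (SE 0.27, edgeR adjusted p = 0.133). In the stomach it was at 50.2, 77.8 and 102 CPM against 37.4, 23.9 and 43.1 CPM, with a log2 fold change of −1.14 (SE 0.33, edgeR adjusted p = 0.103, the lowest of the 10 members in that tissue). The log2 fold change of *Gbp7* was −0.76 in the heart (SE 0.19) and −0.90 in the tongue (SE 0.21). For *Gbp3*, heart controls were at 411, 383 and 488 CPM and SN-011 samples at 320, 253 and 363 CPM. That log2 fold change of −0.45 (SE 0.17, edgeR adjusted p = 0.160) was nearer to 0 than the values of the other tissues, which were −1.09 in the stomach (SE 0.36), −0.95 in the muscle (SE 0.18) and −0.68 in the tongue (SE 0.16).

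**Figure D3:**
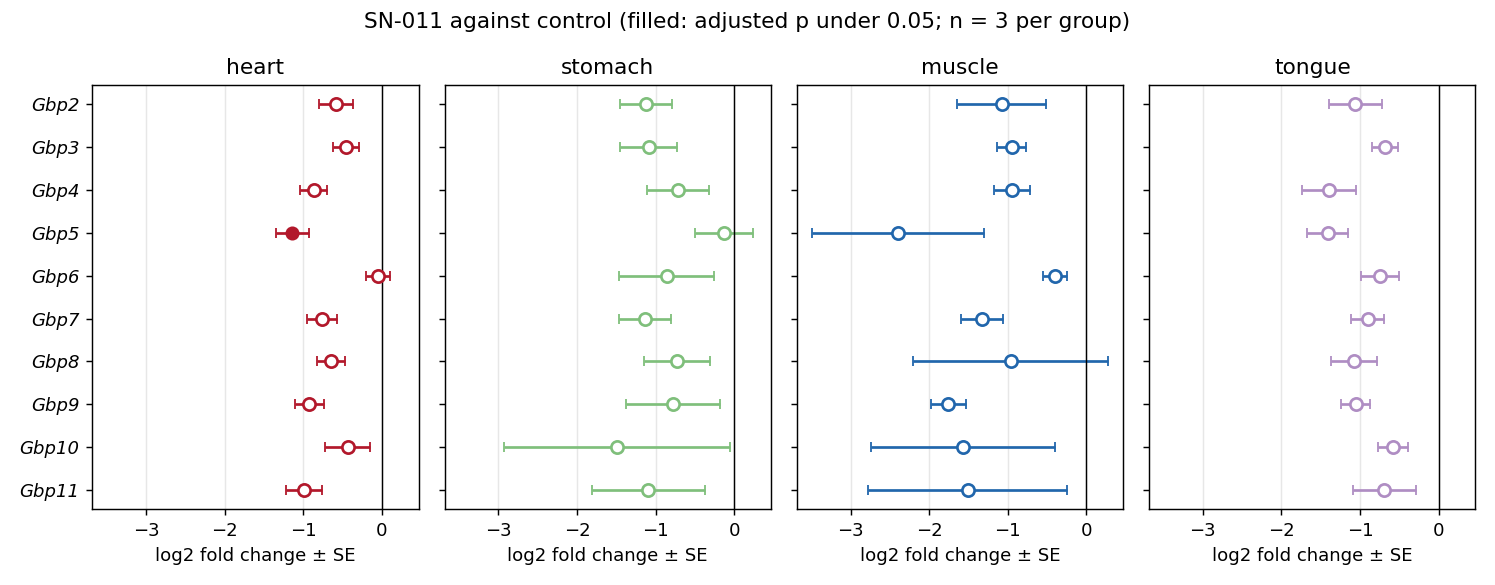
Log2 fold change of each member, SN-011 against control, from edgeR's quasi-likelihood fit in each tissue (x axis) with its standard error as the bar; filled points passed an adjusted p of 0.05. All 40 points are below 0, and the filled point is Gbp5 in the heart.

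Of the chromosome 5 members, *Gbp9*, which like several of the family can be found on parasite-containing vacuoles, gave the lowest p of the members in the muscle. It was at 31.7, 25.5 and 35.5 CPM in muscle controls and at 9.54, 7.10 and 10.8 CPM after SN-011. The highest SN-011 sample was well below the lowest control, and the log2 fold change was −1.75 (SE 0.23, edgeR adjusted p = 0.0764). In the heart *Gbp9* was at 196, 171 and 247 CPM against 107, 86.1 and 130 CPM, with a log2 fold change of −0.93 (SE 0.18, edgeR adjusted p = 0.0565). The tongue controls were at 96.9, 104 and 65.5 CPM and the SN-011 samples at 42.1, 44.6 and 41.2 CPM, with a log2 fold change of −1.06 (SE 0.19, edgeR adjusted p = 0.263). In the stomach the controls ranged from 13.1 to 84.8 CPM and enclosed the SN-011 samples at 14.7 to 34.2 CPM, and the log2 fold change of −0.78 (SE 0.60) became −0.0098 without control replicate 3.

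Of the exonic bases of *Gbp4*, 61 also belong to *Gbp8* or *Gbp9*. *Gbp4* was at 246, 214 and 297 CPM in heart controls and at 132, 114 and 168 CPM after SN-011, a log2 fold change of −0.87 (SE 0.18) that missed the threshold in edgeR's test (adjusted p = 0.0586). In the tongue it was at 136, 222 and 82.2 CPM against 62.5, 59.2 and 46.02 CPM, with a log2 fold change of −1.39 (SE 0.34, edgeR adjusted p = 0.271). In both tissues the groups were apart, as they were in the muscle (log2 fold change −0.95, SE 0.23), whereas they overlapped in the stomach (−0.72, SE 0.40). *Gbp8* had lower levels, 32.4 to 45.6 CPM in heart controls and 21.6 to 29.5 CPM after SN-011, with a log2 fold change of −0.65 (SE 0.18, edgeR adjusted p = 0.0958). In the tongue *Gbp8* had a log2 fold change of −1.08 (SE 0.30) and groups that were apart, and in the stomach (−0.73, SE 0.42) and muscle (−0.96, SE 1.24) they overlapped.

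*Gbp11*, the annotated polymorphic pseudogene, was the member with the lowest CPM in the heart. It was at 12.8, 12.5 and 18.3 CPM in heart controls and at 5.98, 6.77 and 9.14 CPM after SN-011. The groups were apart, with a log2 fold change of −0.99 (SE 0.23, edgeR adjusted p = 0.0754). In the stomach (log2 fold change −1.09, SE 0.72), muscle (−1.51, SE 1.26) and tongue (−0.69, SE 0.40) the groups overlapped, at levels of 0 to 7.11 CPM. The count of 0 was SN-011 replicate 2 of the muscle, which also had 0 counts of *Gbp5*, *Gbp8* and *Gbp10*. Without that sample the muscle value of *Gbp11* was −0.94.

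*Gbp6* and *Gbp10*, the near-identical pair, are members that have been linked to restriction of bacteria in macrophages, and their heart groups overlapped, as did those of *Gbp2*. *Gbp6* was at 238, 198 and 250 CPM in heart controls and at 208, 192 and 260 CPM after SN-011. The groups overlapped with a log2 fold change of −0.05 (SE 0.15, edgeR adjusted p = 0.867), which was 0.0074 without control replicate 3 and 0.04 without SN-011 replicate 2. *Gbp10* was at 147, 91.5 and 117 CPM against 76.7, 56.6 and 130 CPM, with a log2 fold change of −0.43 (SE 0.29, edgeR adjusted p = 0.402). In the tongue the groups of both were apart, though for *Gbp6* control replicate 3 and SN-011 replicate 1 were both at 53.5 CPM to 3 digits. The log2 fold changes there were −0.75 for *Gbp6* (SE 0.24) and −0.58 for *Gbp10* (SE 0.19). In the muscle *Gbp6* was at 40.7, 35.7 and 35.2 CPM against 28.2, 24.6 and 31.7 CPM (log2 fold change −0.40, SE 0.15), and *Gbp10* at 28.2, 39.7 and 38.5 CPM against 12.5, 0 and 23.2 CPM (−1.57, SE 1.17). The 0 was SN-011 replicate 2, and without it the value of *Gbp10* was −0.99.

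Ratios of raw counts within a sample need no scaling between libraries. The count of *Gbp9* per count of *Gbp6* was 0.825 to 0.987 in heart controls and 0.448 to 0.515 after SN-011, and in the muscle 0.716 to 1.01 against 0.289 to 0.340. For *Gbp5* per count of *Gbp6*, the heart controls were at 0.377 to 0.4998 and the SN-011 samples at 0.186 to 0.216. In the stomach and the tongue both ratios overlapped between the groups (tongue *Gbp9* per *Gbp6* 0.990 to 1.22 against 0.788 to 1.03). In the stomach *Gbp9* had 2.49 to 3.12 counts for each count of *Gbp6*, above every sample of the other tissues. These ratios were looked at after the values were seen and carry no test. The readthrough gene *Gm43302*, which shares exons with *Gbp6* and *Gbp10*, had 235, 7 and 350 counts in heart controls, 164, 64 and 46 in the heart after SN-011, and 0 to 11 in every sample of the other tissues. Its part in the heart values of *Gbp6* and *Gbp10* was not tested.

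**Figure D4:**
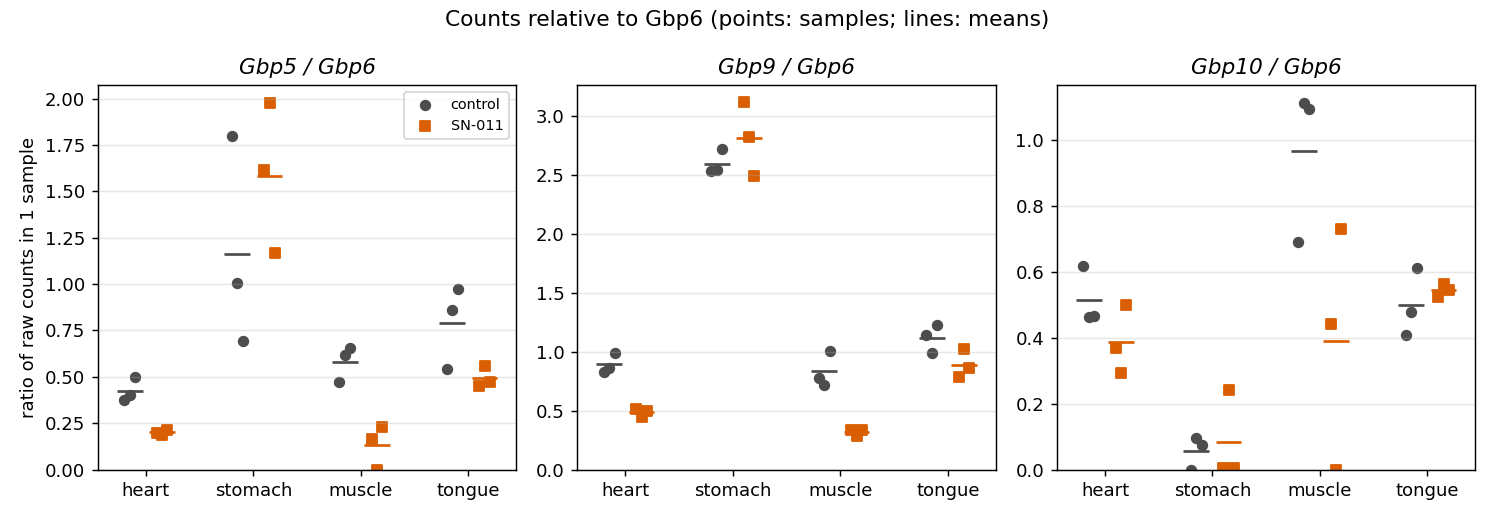
Raw counts of Gbp5, Gbp9 and Gbp10 divided by those of Gbp6 in each sample (y axis, linear from 0), by tissue; circles are control and squares SN-011 samples, and lines are means of 3. In the heart, Gbp9 relative to Gbp6 lies at 0.825 to 0.987 in controls and 0.448 to 0.515 after SN-011.

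In the stomach *Gbp6* was at 5.16, 15.8 and 31.2 CPM in controls and at 10.96, 5.21 and 12.7 CPM after SN-011, with a log2 fold change of −0.86 (SE 0.61). *Gbp10* was rare in the stomach, with 0, 24 and 43 counts in controls and 1, 19 and 1 after SN-011. Of those 6 samples, 3 were at or under the floor of 3 counts, so its fitted log2 fold change of −1.49 (SE 1.43) is poorly determined. Without SN-011 replicate 2, the sample with 19 counts, the fitted value was −4.26.

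To ask whether SN-011 responses differed by tissue, all 24 samples were fitted together. Of 60 combinations of member and tissue pair, 0 differed at an adjusted p under 0.05 in edgeR's quasi-likelihood test and 1 at an unadjusted p under 0.05. DESeq2 called 0 as well. The 1 was *Gbp5* between stomach and muscle, with a log2 difference of 2.25, stomach minus muscle (SE 0.87, edgeR adjusted p = 0.114). Without SN-011 replicate 2 of the muscle it was 1.68 with an adjusted p of 0.0298. Among all 19731 genes, the share called was 2.01% when the heart was compared with the stomach, 0.00507% with the muscle and 0% with the tongue, 6.95% for stomach and muscle, 0.821% for stomach and tongue and 0.0355% for muscle and tongue.

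The level of the members without SN-011 was compared between tissues per kilobase of exon. The length was that of all annotated exons of a gene, with shared bases counted (1726 of 5954 for *Gbp6*, 1792 of 3873 for *Gbp10*). The place of a member among the others depends on this choice, whereas the order of tissues for 1 member does not. All 10 had their highest mean in the heart. In the heart *Gbp2* (128 ± 22.2 CPM per kilobase, SD, n = 3) and *Gbp3* (117 ± 15.2) were the highest members, and *Gbp11* (4.85 ± 1.10) the lowest. *Gbp2* and *Gbp3* were also the highest pair in the tongue (115 ± 61.1 and 84.8 ± 15.4), the stomach (31.4 ± 5.63 and 34.7 ± 12.6) and the muscle (26.9 ± 4.40 and 37.6 ± 5.93). The ranges of the pair overlapped in the heart, tongue and stomach, and in the muscle every *Gbp3* value lay above every *Gbp2* value. The remaining heart values were 35.5 ± 6.78 for *Gbp9*, 34.4 ± 4.31 for *Gbp6*, 30.2 ± 5.12 for *Gbp4*, 27.4 ± 6.61 for *Gbp10*, 26.3 ± 4.37 for *Gbp7*, 13.2 ± 3.27 for *Gbp5* and 9.90 ± 1.77 for *Gbp8*.

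**Figure D5:**
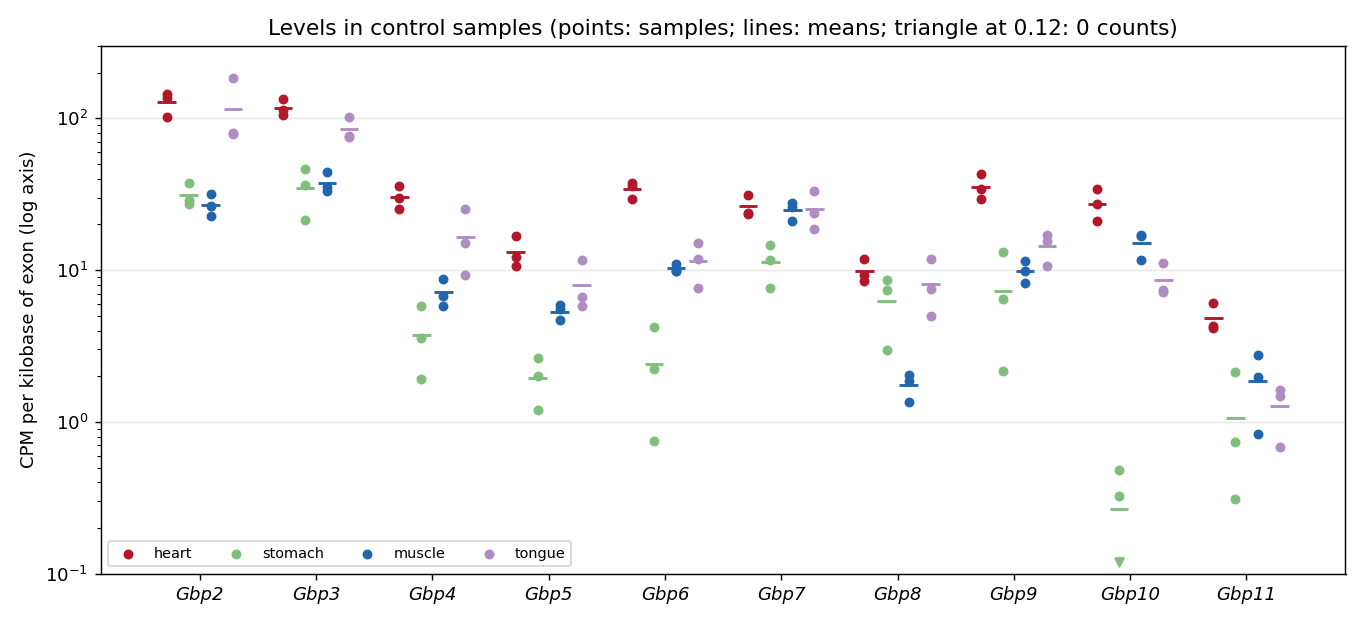
CPM per kilobase of exon (y axis, log scale) of each member in the control samples of the 4 tissues; points are samples, lines are means of 3, and the triangle marks 0 counts. Each member has its highest mean in the heart, and Gbp10 in the stomach is the lowest mean at 0.268.

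In the joint edgeR fit, 9 of 10 members differed between heart and stomach controls (42.5% of all genes did), all higher in the heart, with *Gbp8* the exception. Between heart and muscle 6 differed (33.7% of genes), 2 between heart and tongue (29.1%), 5 between stomach and muscle (51.6%), 7 between stomach and tongue (36.9%) and 4 between muscle and tongue (38.1%). For heart and tongue, stomach and muscle, and muscle and tongue, the members were called about as often as all genes were. The members called between heart and tongue were *Gbp6* (log2 difference 1.58, SE 0.40, edgeR adjusted p = 0.00481) and *Gbp9* (1.29, SE 0.42, edgeR adjusted p = 0.0239). The members lower in the stomach than in the muscle were *Gbp4*, *Gbp6*, *Gbp7* and *Gbp10*, while *Gbp8* was higher in the stomach by 1.85 (SE 0.60, edgeR adjusted p = 0.0136). Without control replicate 2 of every tissue, 3 members separated stomach from muscle (37.2% of all genes did), 4 stomach from tongue (24.6%) and 1 muscle from tongue (23.9%). Between heart and tongue, 1 member was called without control replicate 3 (16.6% of all genes) or SN-011 replicate 1 of every tissue (24.4%), 4 without SN-011 replicate 2 (36.7%) and 5 without SN-011 replicate 2 of the muscle alone (37.4%).

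The order of tissues was heart, tongue, muscle and stomach for *Gbp3*, *Gbp4*, *Gbp5*, *Gbp6*, *Gbp7* and *Gbp9*. In that order the neighbours heart and tongue were not called different for *Gbp3*, *Gbp4*, *Gbp5* and *Gbp7*, and tongue and muscle were not for *Gbp5*, *Gbp6*, *Gbp7* and *Gbp9*. Muscle and stomach were not called different for *Gbp3*, *Gbp5* and *Gbp9*. For *Gbp2* and *Gbp8* the stomach mean was above the muscle mean, with a called difference for *Gbp8* only. For *Gbp10* and *Gbp11* the muscle mean was above the tongue mean, and neither of those differences was called. *Gbp10* set the stomach furthest apart, at 0.268 ± 0.245 CPM per kilobase against 8.57 ± 2.21 in the tongue, 15.1 ± 2.94 in the muscle and 27.4 ± 6.61 in the heart, and its log2 difference between heart and stomach was 6.59 (SE 1.10, edgeR adjusted p = 7.06e-05).

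Across the 24 samples, after the mean of each tissue was taken off, the log2 levels of the members were correlated. The 45 pairs had a median Pearson r of 0.782, from 0.429 for *Gbp4* with *Gbp10* to 0.922 for *Gbp3* with *Gbp7*. The near-identical pair *Gbp6* and *Gbp10* were at 0.484. Treatment, library and tissue are shared by these points, so the values are descriptions. They also include very low counts. *Gbp6* was at 301 counts and *Gbp5*, *Gbp8*, *Gbp10* and *Gbp11* at 0 in the muscle for SN-011 replicate 2. Stomach samples held 0 to 43 counts of *Gbp10*. The part of such counts in the member pairs, among them the low values of *Gbp10* with *Gbp4* and *Gbp6*, was not tested. Among 15816 other genes, those most like the mean of the members were *Ifit2* (r = 0.977), *Cxcl10* (0.959), *Trim30a* (0.957), *Parp14* (0.946) and *Plxnc1* (0.939). Without SN-011 replicate 2 of the muscle these were 0.966, 0.917, 0.922, 0.911 and 0.913 over 23 samples.

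Immunity-related GTPases (IRG), the family that acts beside guanylate-binding proteins on pathogen vacuoles, had mostly negative values too. Of 11 IRG genes, all 11 had a negative log2 fold change in the heart, stomach and tongue and 10 in the muscle. Their medians for heart, stomach, muscle and tongue were −0.64, −1.46, −1.48 and −1.06. In edgeR's test 1 was called lower in the heart (0.328% of all genes) and 0 in the other tissues. At an unadjusted p under 0.05, 9, 7, 8 and 11 were lower, beside 11.6%, 11.4%, 5.80% and 7.33% of all genes. The called gene was *Iigp1*, which coats parasite vacuoles, with a log2 fold change of −1.03 (SE 0.18, edgeR adjusted p = 0.0403). *Irgm1*, a regulatory member of that family, had a log2 fold change of −1.59 in the stomach (SE 0.29, edgeR adjusted p = 0.0635) and −0.96 in the tongue (SE 0.21). *Irgm2* had −1.59 in the muscle (SE 0.19, edgeR adjusted p = 0.0764), *Ifi47* had −1.59 in the stomach (SE 0.27) and *Gm12250* had −1.14 in the heart (SE 0.22). For *Iigp1* itself the value was −2.32 in the muscle (SE 0.24) and −1.47 in the tongue (SE 0.31).

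Genes of the interferon signals that induce the family were mostly on the negative side too, with 0 of 16 called in any tissue by edgeR. Of those tested, 14 of 15 heart values, 10 of 14 stomach values, 10 of 14 muscle values and 13 of 15 tongue values were negative. Their medians were −0.39, −0.29, −0.22 and −0.37. At an unadjusted p under 0.05, 7, 4, 2 and 6 were lower, beside 11.6%, 11.4%, 5.80% and 7.33% of all genes. At that p 1 gene of the list was higher in the stomach and 1 in the muscle. *Stat2*, which acts at ISRE elements, had a log2 fold change of −0.84 in the muscle (SE 0.26) and −0.51 in the tongue (SE 0.12). In the heart the lowest p-values were those of the kinase *Jak2* (−0.46, SE 0.13) and of *Socs1*, an inhibitor of the pathway (−1.15, SE 0.32). The receptor subunit *Ifngr2* had −0.91 in the stomach (SE 0.25), and *Irf2* in the muscle was at 0.57 (SE 0.16, edgeR adjusted p = 0.216).

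Inflammasome genes were tested because guanylate-binding proteins act upstream of caspases. None of the 8 was called by edgeR in any tissue. In the heart, stomach, muscle and tongue 8, 7, 7 and 8 were tested, with medians of −0.36, −0.30, −0.02 and −0.48. Of these, 2, 2, 0 and 2 were lower at an unadjusted p under 0.05. The share of all genes lower at that p was 11.6%, 11.4%, 5.80% and 7.33%. The adaptor *Pycard* had a log2 fold change of −0.74 in the heart (SE 0.19) and −1.25 in the stomach (SE 0.35), and the cytokine *Il18* had −0.68 (SE 0.27) and −1.27 (SE 0.52). In the tongue *Casp4*, which senses bacterial lipopolysaccharide, had −0.64 (SE 0.17) and *Casp1* −0.36 (SE 0.13). In the muscle *Nlrp3* (2.01, SE 0.89) and *Il18* (1.11, SE 0.57) were on the positive side and were not called (edgeR adjusted p = 0.365 and 0.436).

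Autophagy conjugation genes, whose products help to load these GTPases onto vacuoles, had 2 of 10 negative values in the heart. Of the 10, 1 was called higher there, where 0.520% of all genes were, and 0 in the other tissues. It was *Gabarapl1*, a ubiquitin-like protein of autophagosomes, which rose with a log2 fold change of 1.17 (SE 0.17, edgeR adjusted p = 0.0281). The median of the list for heart, stomach, muscle and tongue was 0.28, −0.14, 0.27 and −0.0025. At an unadjusted p under 0.05, 6 of its genes were higher in the heart and 4 in the muscle. In either direction, 3615 of 16151 heart genes and 2095 of 14198 muscle genes had such a p, and 1878 and 823 of them were lower. In the stomach and in the tongue, 1 gene of the list was higher and 1 lower at that p. There 11.4% and 7.33% of all genes were lower. *Gabarapl1* was at 2.04 in the muscle (SE 0.37), 0.90 in the stomach (SE 0.22) and 0.83 in the tongue (SE 0.16), none called. *Map1lc3b* had 0.52 in the heart (SE 0.15) and 0.95 in the muscle (SE 0.20), *Atg5* had −0.75 in the stomach (SE 0.27) and *Gabarap* −0.28 in the tongue (SE 0.12).

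Of the 10 other large GTPases, the dynamins, atlastins, Mx proteins, *Gvin1* and *Gbp2b*, 0 were called by edgeR in any tissue. Their medians for heart, stomach, muscle and tongue were −0.31, −0.02, −0.82 and −0.42. At an unadjusted p under 0.05, 4, 2, 1 and 3 were lower, beside 11.6%, 11.4%, 5.80% and 7.33% of all genes. At that p 1 gene of the list was higher in the heart and 1 in the stomach. The interferon-induced *Mx1* had a log2 fold change of −1.05 in the heart (SE 0.21, edgeR adjusted p = 0.0565) and −1.39 in the tongue (SE 0.15, edgeR adjusted p = 0.221), and *Mx2* had −1.25 in the stomach (SE 0.30) and −0.66 in the tongue (SE 0.21). Of the atlastins and dynamins, *Atl3* had −0.48 in the heart (SE 0.14), *Dnm1* had 1.33 in the stomach (SE 0.35) and −0.59 in the muscle (SE 0.24), and *Dnm3* had 0.86 in the muscle (SE 0.39). *Gbp2b*, beside *Gbp2* on chromosome 3 and 82.5% identical to it in coding sequence, was rare, at 5.11 to 7.49 CPM in heart controls and 3.43 to 4.86 CPM after SN-011. Its log2 fold change was −0.59 in the heart (SE 0.26), −2.52 in the muscle (SE 1.17), −0.51 in the tongue (SE 0.26) and −1.36 in the stomach (SE 0.83), with edgeR adjusted p-values of 0.219 to 0.451.

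Markers of immune cells were read beside the members, since these cells express the family. The 12 genes of T and NK cells summed to 219 to 440 CPM in heart controls and 181 to 281 after SN-011, with 12 of 12 negative and a median log2 fold change of −0.49. In the stomach the sums were 89.2 to 127 against 34.6 to 134 (10 of 11 negative, median −0.62), and in the tongue 138 to 222 against 114 to 194 (7 of 11, median −0.36). In the muscle they were 34.8 to 39.1 against 26.8 to 44.0, with 5 of 11 negative and a median of 0.12. None of these genes was called by edgeR in any tissue. At an unadjusted p under 0.05, 3, 4, 0 and 1 were lower in the heart, stomach, muscle and tongue, beside 11.6%, 11.4%, 5.80% and 7.33% of all genes.

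The 10 macrophage genes gave sums of 2326 to 3165 against 1998 to 2938 CPM in the heart, 529 to 827 against 436 to 1553 in the stomach, 624 to 685 against 528 to 775 in the muscle and 925 to 2498 against 1424 to 1909 in the tongue, overlapping in each tissue. Their medians were −0.03, 0.28, 0.28 and −0.09. The 4 B cell genes, of which 4, 4, 3 and 3 were tested, had medians of −0.98, −0.25, −1.68 and −1.07. Their sums overlapped in every tissue, and in the heart ran from 16.8 to 339 in controls and 6.70 to 139 after SN-011. The 5 endothelial genes had medians of −0.17, 0.25, −0.69 and −0.26, and their sums did not overlap in the heart (699 to 873 against 573 to 692) or the muscle (211 to 270 against 114 to 167). The 4 neutrophil genes had medians of 0.06, 2.11, 0.51 and −5.38, and the last rests on control replicate 3 of the tongue, at 338 CPM against at most 5.80 in each other tongue sample. No gene of these immune and endothelial lists was at 0 counts in all 6 samples of a tissue. The part of these cells in the members' values was not tested.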

How the data were processed

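RNA-Seq of 24 samples, 3 for each tissue and treatment, was processed. As the study's methods state, the authors trimmed reads with Trimmomatic, mapped them with hisat2 and counted uniquely mapped pairs with featureCounts. The submitters' processing notes name HISAT2, HTSeq and build mm10 instead, so the counter is uncertain. What the authors deposited is a whole-number count per gene and sample, not normalized, for 54532 identifiers, of which 54495 are in GENCODE M21 (GRCm38). The annotation release used for counting is not given in the sources used here.

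Samples were grouped by tissue and treatment from the labels. For each tissue a separate edgeR 4.0.16 model (R 4.3.3) was made after filterByExpr, which kept genes by a minimum count of 10 and a total of 15, with TMM scaling. Quasi-likelihood tests used a prior count of 0.125. P-values were adjusted by Benjamini-Hochberg over all genes tested, with a threshold of 0.05. Tissues were compared in a joint fit of all 24 samples with 8 groups. CPM within a tissue are TMM-scaled, and levels per kilobase use the TMM scale of all 24 samples. The exact permutation test of a member used all 20 relabellings. Likeness used log2 (CPM + 0.5) and genes with a mean of at least 1 CPM. Alternatives were DESeq2 1.42.0, its size factors, no filter, edgeR's exact test, the joint fit, a replicate block and each sample left out. Same-numbered controls deviated together for heart with muscle and for muscle with tongue, and a block on the number left the members called there as they were. Fits were tested on simulated data. Coding sequences came from GENCODE M21 and promoters from RefSeq.

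The members and gene lists were chosen with earlier results of these data known. Besides the members, genes were named if called in a pathway list, if among the lowest 2 p-values of a list in a tissue, or if among the 5 most like the members; *Gbp2b*, *Trex1* and *Xist* were always named. *Atrip*, *Gm43302* and *Gm43802* were named for their overlaps, and the marker lists as wholes. One gene that the rule names is not reported here.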

Additional observations from a re-analysis of the deposited data

How the results depend on the processing

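The direction of the members' median was the same in every tissue under every alternative. Each median moved by less than the members' median SD between replicates, 0.287 (heart), 0.639 (stomach), 0.659 (muscle) and 0.364 (tongue) on the log2 scale. That limit is wide, and 2 medians came close to it. The stomach median went from −0.97 to −0.34 without control replicate 3. The tongue median went from −0.98 to −0.62 without control replicate 2. Over the fits that left out 1 sample it was −0.93 to −0.58 (heart), −1.28 to −0.34 (stomach), −1.51 to −1.01 (muscle) and −1.16 to −0.62 (tongue). The number of members called was less stable. In the heart, where 1 was called, it was 7 without a filter on low counts, 6 with edgeR's exact test, 7 with DESeq2, 5 with the replicate block, 0 in the joint fit and 0 to 4 with a sample left out. Within a tissue the block joins control and SN-011 samples that share only a number, so its count carries less weight. In the stomach, where 0 were called, it was 2 without a filter, 2 with the exact test, 3 with DESeq2, 2 in the joint fit and 0 to 0 with a sample left out, and the first 4 of these settings called 1.84%, 4.12%, 6.53% and 7.18% of all genes lower. In the muscle, where 0 were called, it was 1 without a filter, 4 with the exact test, 4 with DESeq2, 4 in the joint fit and 0 to 5 with a sample left out, beside 0.158%, 1.35%, 2.90% and 1.41% of all genes lower. In the tongue, where 0 were called, it was 4 with the exact test, 6 with DESeq2 and 0 to 6 with a sample left out, beside 1.12% and 1.77% of all genes lower. The cause of these shifts was not tested. The number of genes called in all moved as well, in the heart from 137 to 1888 without a filter, 918 with the exact test, 1361 with DESeq2, 242 with the block and 1 in the joint fit.

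Between control tissues, the number of members called was 8 to 9 for heart and stomach when samples were left out (28.7% to 50.4% of all genes). It was 5 to 8 for heart and muscle (19.7% to 41.7%) and 1 to 5 for heart and tongue (16.5% to 37.4%). For stomach and muscle it was 3 to 6 (37.2% to 58.3%), for stomach and tongue 4 to 8 (24.6% to 45.4%). For muscle and tongue it was 1 to 4 (23.9% to 45.5%). With DESeq2 it was 4 for heart and tongue (34.3% of all genes). The number of differing responses was 0 to 1. The single values that changed sign were *Gbp6* in the heart (−0.21 to 0.04 with a sample left out, at 0.0074 and 0.0375 in 2 of the fits) and *Gbp5* in the stomach (−0.42 to 0.16, at 0.0395 and 0.16). The number of member and tissue combinations without overlap was 27, and 25 with library size alone and 26 with scaling over all samples, both chosen after seeing the data.

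The replicate numbers were checked as pairs: same-numbered control and SN-011 samples of a tissue correlated at −0.37 to 0.27 as deviations from group means, over 0.1 in 2 of 12 pairs, so within a tissue they share only a number. Same-numbered controls of different tissues had a median of 0.236, over 0.1 in 13 of 18 pairs. All 3 pairs were over 0.1 for heart with muscle (0.246 to 0.547) and for muscle with tongue (0.163 to 0.435), and the labels do not say that these were the same mice. With the number as a block across tissues, the same members were called as without it for 4 tissue pairs. These were heart and stomach (9, beside 41.3% of all genes), heart and muscle (6, 32.5%), heart and tongue (2, 27.8%) and muscle and tongue (4, 37.3%). *Gbp5* was added for stomach and muscle (6, 50.1%) and *Gbp9* for stomach and tongue (8, 35.2%). Within tissues the block moved the heart count from 1 to 5 (0.718% of all genes lower) and left the stomach, muscle and tongue at 0. Values under 0.210 CPM are below the depth of these libraries, and reads shared by *Gbp6*, *Gbp10* and *Gm43302* cannot be assigned here.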

Other observations

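Keratins of the tongue epithelium list (*Krt4*, *Krt13*, *Krt5*, *Krt14*, *Krt84* and *Krt36*) summed to between 418 and 1685 CPM in SN-011 stomachs and between 119 and 187 CPM in stomach controls. In the same samples the 10 guanylate-binding protein genes together had 149 to 308 and 210 to 687 CPM.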
